A study of Mus musculus with 2 samples.

Results

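Keratinocytes of the epidermis are held in contact by several kinds of junction, and the transcripts described here encode the channel proteins of gap junctions and the sealing proteins of tight junctions. The set was 4 connexin genes (Gja1, Gjb2, Gjb5 and Gjb6) and 4 claudin genes (Cldn1, Cldn4, Cldn7 and Cldn8), chosen by gene name. All non-control probes that carry one of these names on both arrays were taken, which gave 10 probes for the 8 genes, of 55676 probes with 34820 names in all. Cldn4 and Cldn7 had 2 probes each and the other 6 genes had 1 probe each. Of these 10 probes, 9 were well above background in both channels of both arrays, and none was saturated.

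The samples were dorsal epidermal sheets of FVB/N mouse pups at P4.5, separated from the dermis with dispase. Each of 2 arrays set a K14-rtTA;TRE-Sox11-FLAG pup against a sex-matched littermate with K14-rtTA alone, and both pups of a pair received doxycycline (Dox) for 12 h, so that the controls carried the activator and the drug too. K14-rtTA makes a Dox-dependent activator in keratin 14 positive cells, chiefly the basal layer, and TRE-Sox11-FLAG is the gene it switches on, which encodes the DNA-binding protein SOX11. Per the labels, control RNA carried Cy3 and SOX11 RNA carried Cy5 on each array, so for any single probe dye and genotype cannot be told apart. The 2 Sox11 probes were not well above background in any channel, so they do not check the labels. They start at positions 7437 and 7983 of the Sox11 transcript, while the methods describe a transgene built from the Sox11 reading frame. Whether these probes can read the transgene was not tested.

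Connexins assemble in rings of subunits in the plasma membrane, and rings of neighbouring cells dock to form channels that pass ions and small metabolites. Gja1 encodes connexin 43, the most widely expressed member of the family, while Gjb2, Gjb5 and Gjb6 encode connexins 26, 31.1 and 30, beta-type connexins of stratified epithelia and hair follicles. Claudins are membrane proteins that form the strands of tight junctions and set how freely water and ions pass between cells. In the epidermis tight junctions lie in the granular layer, and loss of Cldn1 is known to cause a lethal failure of the water barrier in newborn mice. Cldn4 and Cldn7 are widespread epithelial claudins, and Cldn8 is best known from the kidney tubule.

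The promoters of Gjb2 and Gjb6, neighbouring genes whose signals were low in the same pup, and of Cldn4, the only one of 7 members with a promoter entry that matched a SOX motif, are given here. Each line holds the 250 bases before the RefSeq start on the gene's strand (GRCm38.p6, minus strand for the 3 genes), with matches to the searched motifs in capitals. The motifs were the SOX motifs AACAAT and AACAAAG, the GC box GGGCGG and the TATA box TATAAA, each on both strands and with overlaps between motifs allowed.
Gjb2, chr14:57104703-57104952: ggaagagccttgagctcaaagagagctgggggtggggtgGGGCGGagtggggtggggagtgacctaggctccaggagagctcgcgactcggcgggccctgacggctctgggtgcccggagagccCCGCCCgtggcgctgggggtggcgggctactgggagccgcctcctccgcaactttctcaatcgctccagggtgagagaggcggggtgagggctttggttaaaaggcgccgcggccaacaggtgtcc
Gjb6, chr14:57133612-57133861: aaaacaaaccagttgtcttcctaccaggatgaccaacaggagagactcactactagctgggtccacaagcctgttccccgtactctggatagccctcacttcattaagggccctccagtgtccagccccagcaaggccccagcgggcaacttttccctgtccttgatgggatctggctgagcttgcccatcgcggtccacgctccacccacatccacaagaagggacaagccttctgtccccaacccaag
Cldn4, chr5:134946935-134947184: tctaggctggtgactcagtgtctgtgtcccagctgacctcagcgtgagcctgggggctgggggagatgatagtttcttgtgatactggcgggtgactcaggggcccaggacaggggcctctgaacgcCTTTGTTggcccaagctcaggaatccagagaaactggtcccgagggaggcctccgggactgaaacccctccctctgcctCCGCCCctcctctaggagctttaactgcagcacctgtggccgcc

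The Gjb2 window held 2 GC boxes, the Gjb6 window held none of the motifs, and the Cldn4 window held 1 match to AACAAAG on the opposite strand and 1 GC box. AACAAAG was present in 5.03% and AACAAT in 9.42% of 32851 promoter windows of this length, while GGGCGG was present in 32.7% and TATAAA in 12.4%. RefSeq promoters were found for 7 of the 8 genes, and Cldn8 had no entry. A match is a description of the letters and not a measured site.

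None of the 10 probes passed an adjusted p of 0.05 in limma in either direction, and 3 of them (Cldn4, Cldn7 and Cldn8) had an unadjusted p under 0.05, as did 31.2% of all probes above background. Among the 21782 probes for which each array had 1 or more channels well above background, 6.78% were called higher and 3.21% lower in SOX11-induced epidermis. A mean log2 ratio past 1.5 together with this adjusted p, the threshold of the methods, was reached by 1.16% of them and by no member. The lowest adjusted p of a member was 0.131, for Cldn8, and the highest was 0.892, for the dim probe of Cldn7. The 95% intervals of the mean log2 ratio lay within -1.5 and 1.5 for all 10 probes, so that none of the intervals reached the threshold of the methods.

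Among the connexins, Gjb2 had the largest mean log2 ratio and also the largest disagreement between pairs. Its probe (chr14:57717629-57717688, mm9) gave a normalised log2 brightness of 11.27 in the control and 12.65 in the SOX11 pup of pair 1, and of 12.91 and 12.73 in pair 2. The control of pair 1 was thus the low sample, and the other 3 pups lay close together. The log2 ratio of SOX11-induced over control was 1.37 in pair 1 and -0.17 in pair 2, with a mean of 0.60 ± 1.09 (SD, n = 2) and an adjusted p of 0.281 in limma. The interval of the mean ran from -0.06 to 1.26, that is from 0.958-fold to 2.39-fold. This interval rests on a variance drawn towards that of other probes, and both pairs of Gjb2 lay outside it.

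The same pup was the low sample for Gjb6, which lies next to Gjb2 on chromosome 14 (probe at chr14:57742226-57742285, mm9). Gjb6 measured 10.05 in the control and 10.77 in the SOX11 pup of pair 1, against 11 and 10.71 in pair 2. Its log2 ratios were 0.72 and -0.29, with a mean of 0.22 ± 0.713 (SD, n = 2) and an adjusted p of 0.624 in limma. Gja3, the third connexin gene of this cluster (probe at chr14:57654750-57654809, mm9) and best known from the lens, was named after its values were seen. It was above background in 3 of the 4 pups, at 6.18 to 6.78, and not in the control of pair 1, and its log2 ratio was -0.35 in pair 2.

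Gjb5 differed between pairs in the other sense. It measured 8.32 in the control and 7.51 in the SOX11 pup of pair 1, and 8.0 and 8.03 in pair 2, so that the SOX11 pup of pair 1 was the low sample (probe at chr4:127032053-127032112, mm9). The log2 ratios of -0.81 and 0.03 averaged -0.39 ± 0.596 (SD, n = 2), with an adjusted p of 0.308 in limma. Gja4, which encodes connexin 37 and is best known from vessel endothelium, lies near Gjb5 on chromosome 4 (probe at chr4:126988848-126988907, mm9) and fell in both pairs.

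Gja4 measured 7.46 in the control and 6.27 in the SOX11 pup of pair 1, and 7.46 and 6.60 in pair 2. Its log2 ratios were -1.19 and -0.86, with a mean of -1.02 ± 0.238 (SD, n = 2) and an adjusted p of 0.00802 in limma. Endothelial markers were detected in part. Of 6 such genes, Cdh5, Tek and Emcn were not above background in any channel, and none was called. The means of Kdr and Vwf, which were above background throughout, were -0.16 and -0.02. Over the 3 genes above background the median was -0.02, and the means of all 6 ran from -0.16 to 0.35. In such bulk samples, fewer cells of a type and less RNA per cell cannot be told apart.

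Gja1 was the connexin with the closest pairs. Its probe (chr10:56109814-56109873, mm9) was spotted 10 times on each array, and the SD over the spots of the log2 ratio was 0.0831 on pair 1 and 0.0707 on pair 2. The pups measured 8.73 and 8.75 in pair 1 and 9.15 and 8.97 in pair 2, control first, so that the groups overlapped. The log2 ratios were 0.02 and -0.18, with a mean of -0.08 ± 0.139 (SD, n = 2), an adjusted p of 0.804 in limma and an interval from -0.42 to 0.26. In fold terms this interval spans 0.745 to 1.20.

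**Figure D1:**
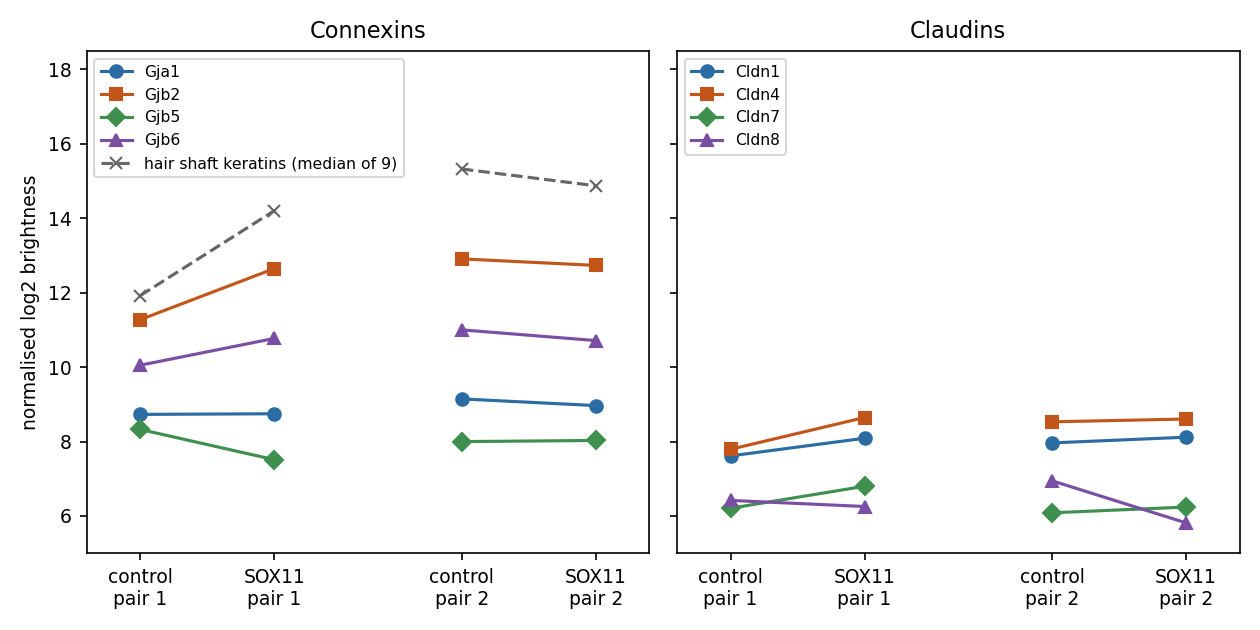
Normalised log2 brightness (y axis, log2 of scanner units after loess and scaling between arrays) of each connexin (left) and claudin (right) in the 4 pups, with a line joining the littermates of a pair and a dashed line for the median of 9 hair shaft keratins. Heights of different genes come from different probes and cannot be compared. Gjb2 goes from 11.27 in the control of pair 1 to between 12.65 and 12.91 in the other 3 pups.

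Of the claudins, Cldn1, Cldn4 and Cldn7 had positive log2 ratios in both pairs and Cldn8 had negative ones in both, but every one of them was small in 1 pair. Cldn4 measured 7.79 in the control and 8.65 in the SOX11 pup of pair 1, and 8.53 and 8.60 in pair 2 (probe at chr5:135422135-135422194, mm9). As for Gjb2, the control of pair 1 was low and the other 3 pups agreed closely. The log2 ratios were 0.85 and 0.07, with a mean of 0.46 ± 0.551 (SD, n = 2) and an adjusted p of 0.216 in limma. The second Cldn4 probe (chr5:135421347-135421406, mm9) gave nearly the same ratios, 0.74 and 0.05.

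The 2 probes of Cldn4 cover different stretches of 1 transcript, starting at its positions 610 and 1398. Their first 30 of 60 bases are shown because they read out the same gene at different places.
Cldn4, probe at position 610: acaacgtcatccgcgacttctacaacccta
Cldn4, probe at position 1398: accctactaatgaatttctgtagagtggat

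No probe of a member shared a run of more than 7 bases with a probe of another member gene. Cldn3, the claudin gene beside Cldn4 on chromosome 5 (probe at chr5:135463284-135463342, mm9), had an even larger split, with log2 ratios of 1.49 and -0.20. It measured 6.99 in the control of pair 1 and 8.48 to 9.39 in the other 3 pups, and its adjusted p was 0.276 in limma. Cldn3 was named after its values were seen.

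Cldn1, the claudin of the epidermal water barrier, measured 7.61 and 8.09 in pair 1 and 7.96 and 8.12 in pair 2, control first. The SOX11 pup lay above its control by 0.47 in pair 1 and by 0.15 in pair 2 on the log2 scale (probe at chr16:26357372-26357431, mm9). The mean of 0.31 ± 0.227 (SD, n = 2) had an adjusted p of 0.293 in limma and an interval from -0.04 to 0.67.

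Cldn7 measured 6.21 and 6.80 in pair 1 and 6.08 and 6.24 in pair 2, control first, through its brighter probe (chr11:69781255-69781314, mm9). The lower SOX11 pup exceeded the higher control by little. The log2 ratios of 0.59 and 0.15 averaged 0.37 ± 0.309 (SD, n = 2), with an adjusted p of 0.237 in limma. The other Cldn7 probe (chr11:69778772-69778831, mm9) was not well above background in any channel. RefSeq lists 2 starts for Cldn7, and the whole dim probe lies before the downstream start, from base -151 to base -92, so that a transcript from that start would lack it. The first 30 bases of each are shown for this difference.
Cldn7, probe above background: aaaggcctcctggccactccacctccaaac
Cldn7, probe not above background: ttagagccaggcaaatgaaggggcgtgacc

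Cldn8 was the member with the lowest p. It measured 6.42 in the control and 6.25 in the SOX11 pup of pair 1, and 6.94 and 5.81 in pair 2 (probe at chr16:88561135-88561194, mm9). The SOX11 pup was the lower in both pairs, though in pair 1 the difference was small. The log2 ratios of -0.16 and -1.13 averaged -0.65 ± 0.685 (SD, n = 2), or 0.639-fold, with an unadjusted p of 0.0150 and an adjusted p of 0.131 in limma. The signal was dim: in the SOX11 pup of pair 2 the spot read 114 over a local background of 61. Under the alternative ways of processing the arrays the mean log2 ratio ranged from -1.12 to -0.37. Its mean stood at the percentile 3.47 of all probes above background, the most extreme position among the members, and its interval ran from -1.14 to -0.16.

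**Figure D2:**
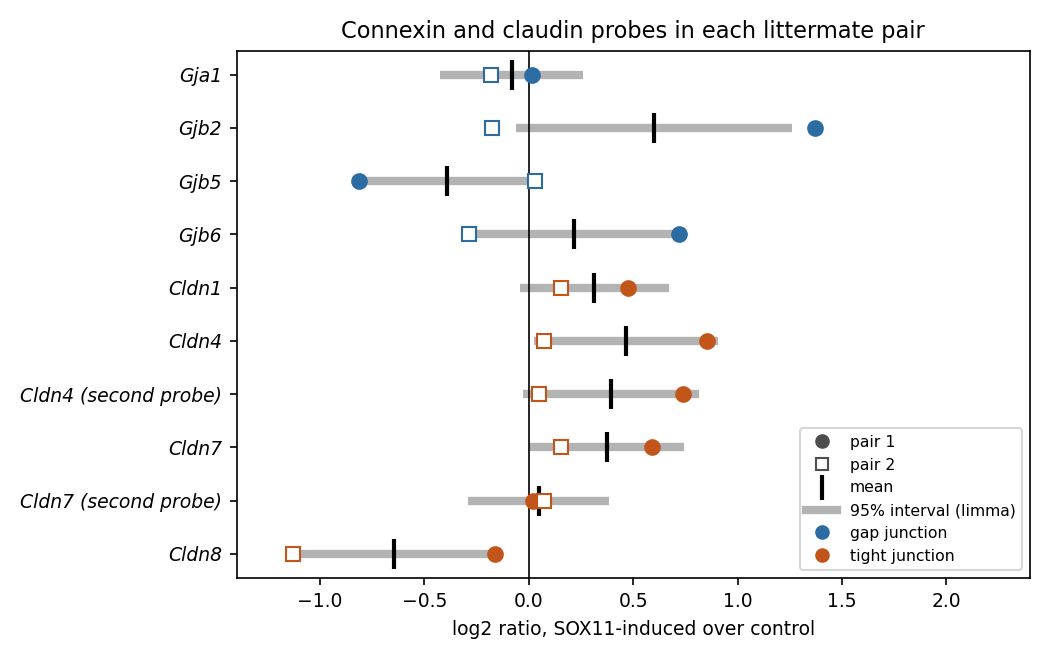
Log2 ratio of SOX11-induced over control (x axis) for the 10 connexin and claudin probes, with filled circles for pair 1, open squares for pair 2, black bars for the mean and grey bars for the 95% interval from limma. The connexins lie on opposite sides of 0 in the 2 pairs, though Gja1 in pair 1 and Gjb5 in pair 2 lie close to 0. Cldn1, Cldn4 and Cldn7 lie above 0 and Cldn8 below it in both pairs.

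Gap junction genes were then set against tight junction genes, with the brightest probe for each gene. In pair 1 the median log2 ratio of the 4 connexins was 0.37, in pair 2 it was -0.18, and the median of their means was 0.07. The 4 claudins had medians of 0.53 and 0.11, with a median of means of 0.34. The connexin median lay below the claudin median by 0.16 in pair 1 and by 0.29 in pair 2, and by 0.28 for the means. All probes above background had a median of 0.04, and 2 arrays allow no exact sign-flip p under 0.5, so this difference was not tested.

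All 4 connexins had opposite signs in the 2 pairs, whereas the 4 claudins kept theirs. For Gja1 (0.02 in pair 1), Gjb5 (0.03 in pair 2) and Cldn4 (0.07 in pair 2) the sign rested on a ratio close to 0. The spots of Gja1 in pair 1 lay on both sides of 0, from -0.09 to 0.14. Across all probes above background, 74.0% had the same sign in both pairs. The size of the difference between pairs was also large for several members: its median over all probes above background was 0.19 on the log2 scale, while it was 1.55 for Gjb2, 1.01 for Gjb6, 0.97 for Cldn8, 0.84 for Gjb5 and 0.78 for Cldn4. These 5 genes lay between the percentiles 96.0 and 99.0 of that difference. Gja1, at 0.20, lay at the percentile 52.1.

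The control of pair 1 was the lowest of the 4 pups for 5 of the 8 genes (Gja1, Gjb2, Gjb6, Cldn1 and Cldn4) and for 30.3% of all probes above background. The keratins of the hair shaft did the same. For 9 hair keratin genes the median level was 11.92 in the control of pair 1 and 14.20 in its SOX11 littermate, against 15.32 and 14.87 in pair 2, and the control of pair 1 was the lowest pup for 9 of 9. Their log2 ratios ran from 1.42 to 2.46 in pair 1 and from -0.54 to -0.08 in pair 2, and none was called, with 3 at an unadjusted p under 0.05 in limma. Beta-type connexins are known from hair follicles as well as from the epidermis between them, and the part of hair follicle RNA in the values of Gjb2, Gjb6 and Cldn4 was not tested. Without pair 1, the log2 ratios of these genes were -0.17, -0.29 and 0.07.

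Markers of basal keratinocytes were lower in both pairs. All 6 basal markers had negative log2 ratios in both, and Krt15, a keratin of the basal layer and of the hair follicle bulge, and Col17a1, a hemidesmosome collagen, were called lower, with means of -1.03 (adjusted p = 0.00573 in limma) and -1.10 (adjusted p = 0.00669). Of 8 markers of suprabasal, differentiating cells, 6 were higher and 2 (Tgm3 and Dsg1a) lower in both pairs and none was called, with 5 higher and 1 lower at an unadjusted p under 0.05 in limma. The part of a shift between layers in the claudin values was not tested.

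The wider families were measured through lists of related genes. Of 19 further connexins and pannexins on the array, 9 were above background, 2 were called higher (Gjc1 and Panx1) and 1 lower (Gja4). The shares called over all probes above background were 6.78% higher and 3.21% lower. Gjc1, which encodes connexin 45, was above background in both SOX11 pups and in neither control. Measured means were 5.59 in the controls and 6.76 in the SOX11 pups, and the mean log2 ratio of 1.17 had an adjusted p of 0.00598 in limma. That ratio was taken against control signals not above background, and the gene entered the set above background through the SOX11 pups alone. As a bound on the control signal alone, with no p of its own, Gjc1 was 2.09-fold higher in SOX11-induced epidermis. This bound leaves out the spread between pairs, and the limma interval of the measured ratio ran from 1.72-fold to 2.95-fold. Panx1, a pannexin channel that releases ATP from keratinocytes, measured 11.04 and 11.67 in pair 1 and 10.86 and 11.70 in pair 2, control first. Its mean log2 ratio of 0.73 ± 0.147 (SD, n = 2) had an adjusted p of 0.0298 in limma. The call was lost with median spot brightness (adjusted p = 0.0506) and with the processed signals (0.271), at ratios of 0.71 and 0.68. Panx3 was not above background in any channel.

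Of 21 further claudins on the array, 7 were above background and none was called in limma. Of the 21, 2 had an unadjusted p under 0.05 in limma, 1 of them among the 7, against 31.2% of all probes above background. The mean log2 ratios had a median of 0.23 over the 7 above background and of -0.05 over all 21, most of which were not above background.

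Of 28 other tight junction proteins, 26 were above background, 2 were called higher and none lower. Over all probes above background, 6.78% were called higher and 3.21% lower. At an unadjusted p under 0.05 in limma, 8 of these proteins were higher and 0 lower. That count lies near the 31.2% of all probes above background with such a p, and list counts use the brightest probe of each gene. Amot, a scaffold that binds YAP, had a control above background on 1 of the 2 arrays, that of pair 2, where its log2 ratio was 1.12. The ratio of 1.25 in pair 1 was taken against a control signal not above background, and the fit over both gave an adjusted p of 0.00280 in limma. Magi1, a membrane-bound scaffold of cell contacts, measured 9.90 and 10.58 in pair 1 and 9.71 and 10.42 in pair 2, control first, with a mean log2 ratio of 0.69 ± 0.0255 (SD, n = 2) and an adjusted p of 0.0337. A second Magi1 probe was also called, with a mean of 1.11 and an adjusted p of 0.00399 in limma, while another had a mean of 0.37 and an adjusted p of 0.247. Magi3, a related scaffold, was not called through its brightest probe (0.65, adjusted p = 0.0618 in limma). Its other probe, above background in the SOX11 pups alone, was 1.66-fold higher by the same bound, which has no p of its own. The limma interval of its measured ratio ran from 1.48-fold to 2.35-fold. The fit to the measured ratios of that probe, taken against controls not above background, gave an adjusted p of 0.0114 in limma.

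Several core proteins of the tight junction were not called. F11r, the adhesion molecule JAM-A, had a mean log2 ratio of 0.62 ± 0.0817 (SD, n = 2; adjusted p = 0.0516 in limma). With a ratio of about the same size, F11r passed with an offset of 50 (adjusted p = 0.00567), over probes above background alone (0.0393) and with a trended, robust prior (0.000992). It also passed with median centring, at a ratio of 1.33 (0.000238). F11r did not pass in limma with median spot brightness (adjusted p = 0.0797), the series table (0.0795) or the processed signals (0.245). Tjp1 (the scaffold ZO-1) stood at 0.25 ± 0.0744, Ocln (occludin, a strand protein) at 0.09 ± 0.0321 and Cgn (cingulin, a plaque protein) at 0.08 ± 0.260 (SD, n = 2 each). F11r, Tjp1 and Ocln were positive in both pairs, while Cgn had opposite signs.

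**Figure D3:**
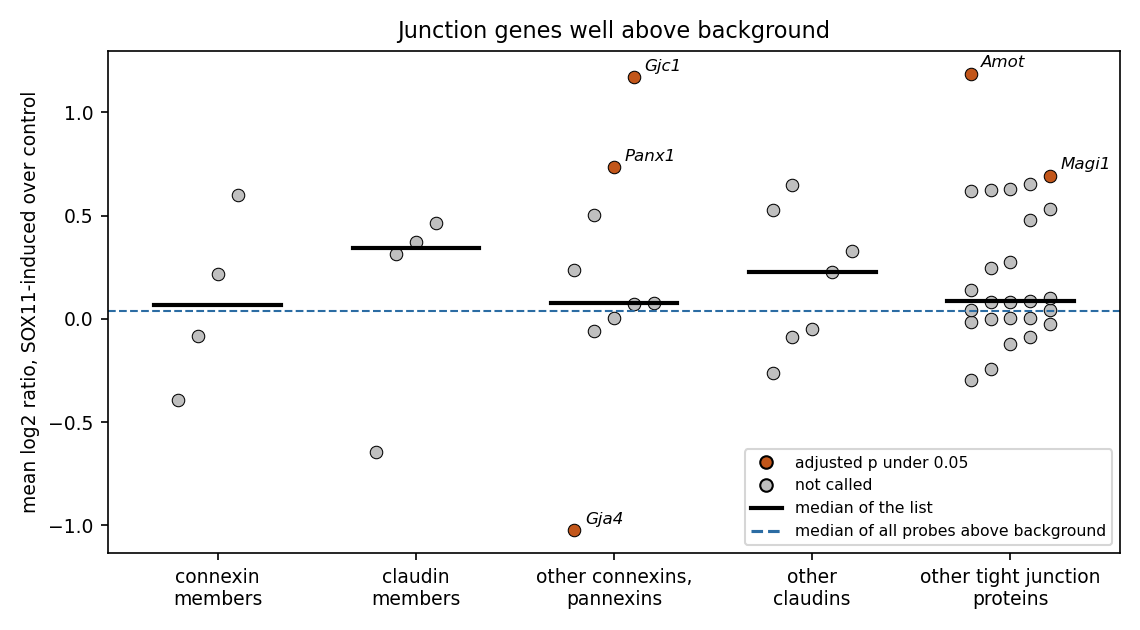
Mean log2 ratio of SOX11-induced over control (y axis) for each gene above background in the connexin and claudin members and in 3 lists of related junction genes, 1 point per gene. Orange points had an adjusted p under 0.05 in limma, black lines are list medians, and the dashed line at 0.04 is the median of all probes above background. The brightest probe of each gene is plotted. No member is orange, and the orange points are Gjc1, Panx1, Gja4, Amot and Magi1.

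The calls depended on how the arrays were scaled. Centring each array on its median in place of loess called 7 of the 10 member probes higher. These were the probes of Gja1, Gjb2, Gjb6, Cldn1 and Cldn4 and the brighter one of Cldn7. Over all 55676 probes, those not above background included, the same centring called 12123 higher and 6362 lower. It also moved the median of all probes above background from 0.04 to 0.51 on the log2 scale. Relative to that shift, the means were 0.78 for Gjb2, 0.34 for Gjb6, 0.31 for Cldn1, 0.49 for Cldn4, 0.13 for Cldn7 and -0.02 for Gja1, while Gjb5 stood at -0.40 and Cldn8 at -0.88. Gja1 and Gjb5 turned positive under that centring before the shift was taken off, at 0.48 and 0.11.

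**Figure D4:**
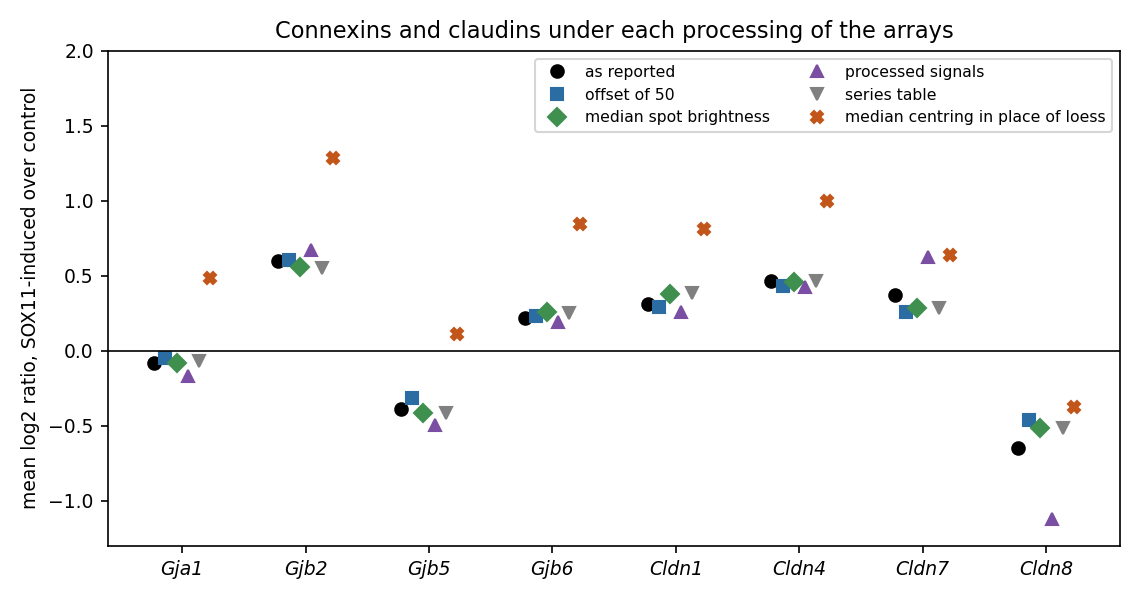
Mean log2 ratio of SOX11-induced over control (y axis) of the brightest probe of each member under 6 ways of processing the arrays. Median centring (orange crosses) lies above the other 5 for each member, and no member passes 1.5 under any of the 6.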

How the data were processed

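Epidermis of 2 littermate pairs was measured on 2-colour Agilent arrays. The intensity values that the authors deposited are, per the file headers, mean and median spot brightness and local background from Agilent Feature Extraction 10.7.3.1, with probe positions on mm9; processed signals in the same files are background-subtracted and dye-normalized by that software. The log10 ratio column deposited with them was not used. The deposited series table holds the authors' log2 ratios, which a rebuild with median brightness matched with correlations of 1.00 on both arrays. The methods also describe a colour swap and a ComBat step, which the labels do not show.

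Mean brightness and median background were corrected by normexp (offset 16) and centred by loess with control spots at weight 0, in R 4.3.3 with limma 3.58.1. Control and outlier-flagged spots were dropped and spots averaged per probe. An intercept was fitted to the 2 paired log2 ratios with eBayes, and p-values were adjusted (Benjamini-Hochberg) over 55676 probes. Moderation drew on 8.34 prior degrees of freedom, on which all calls rest. The labels call the pairs biological replicates. Brightness per pup is after loess and Aquantile scaling. A probe was above background where at least 0.5 of its spots were marked so by the scanner software. The bounds for Gjc1 and Magi3 take as control, on each array, the probe's own signal or the dimmest signal of any probe marked above background. The higher of these was used, and the bounds leave out the spread between pairs and are open to dye bias. Both arrays lay on 1 slide, so slide is no covariate, and the number of arrays limits the precision.

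Members, gene lists and naming rule were chosen with earlier results of these data known. Named were all member probes, called genes of the 3 related lists (at most 10 of each, by size of change), Panx1, Panx3, Ocln, Tjp1, Cgn and F11r; some genes that the rule names are not reported here. Gja3 and Cldn3 were named after their values were seen, as neighbours of members. Lists of basal, suprabasal, hair shaft, fibroblast, endothelial, melanocyte, leukocyte and gland markers checked the tissue. The median log2 ratio of the fibroblast list was 0.23 (1 of 7 genes, Dcn, called, which was lower with a mean of -0.79), of the melanocyte list 0.23, of the leukocyte list -0.27 and of the gland list 0.11, with none called in the last 3. The fit was tested on simulated data. Promoters are from RefSeq (GRCm38.p6), and genome annotation of mm9 was not used here.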

Additional observations from a re-analysis of the deposited data

How the results depend on the processing

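Each ratio is a paired difference within an array, and no unpaired fit was run. Centring each array on its median in place of loess gave a connexin median of 0.66, a claudin median of 0.72 and a difference of -0.059. It called 7 member probes, 6 further connexins, 4 further claudins and 21 other tight junction proteins higher. It called 3 further claudins lower. Over all 55676 probes, those not above background included, it called 12123 higher and 6362 lower. It also gave 0.48 for Gja1, 0.11 for Gjb5 and -0.23 for the dim Cldn7 probe. An offset of 50 gave a difference of -0.19 between connexin and claudin medians and 6 other tight junction proteins called higher, and a trended, robust prior also called 6. Median spot brightness called 1 further connexin higher. The processed signals gave 0 calls among all probes (9764 at an unadjusted p under 0.05 in limma), so that further connexins had 0 called higher and 0 lower and other tight junction proteins 0 higher, and they gave -0.036 for the dim Cldn7 probe and -0.032 for Ocln. The cause of these changes was not tested.

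Leaving out 1 pair, a value with no test, the connexin median ranged from -0.18 to 0.37 and the difference between medians from -0.29 to -0.16. Single values ranged from -0.18 to 0.017 for Gja1, from -0.17 to 1.37 for Gjb2, from -0.81 to 0.030 for Gjb5, from -0.29 to 0.72 for Gjb6 and from -0.10 to 0.26 for Cgn. Outside median centring no member was called under any alternative, and the adjusted p of Cldn8 ranged from 0.127 to 0.358. Over all probes, calls were 1662 higher and 784 lower as reported, 2850 and 1555 with an offset of 50, 2906 and 1733 with the trended prior, and 12123 and 6362 with median centring.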
